A study of Mus musculus with 20 samples.

Results

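UDP-glycosyltransferases (UGTs) are membrane enzymes of the endoplasmic reticulum that transfer a sugar from a UDP-sugar to a small lipophilic molecule, which makes it water soluble and ready for export into bile or blood. Enzymes of the Ugt1a, Ugt2a and Ugt2b families mostly use UDP-glucuronic acid and act on bilirubin, steroids, bile acids and drugs. The human Ugt3a enzymes use other donors: UGT3A1 uses UDP-N-acetylglucosamine, and UGT3A2 uses UDP-glucose and UDP-xylose. UDP-N-acetylglucosamine is also the donor used by OGT, the O-GlcNAc transferase that modifies serine and threonine residues of intracellular proteins. The liver is a main site of these reactions, and many UGT genes increase in expression during postnatal development in rodents.

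The 10 genes looked for were Ugt1a1, Ugt2a3, Ugt2b1, Ugt2b5, Ugt2b34, Ugt2b35, Ugt2b36, Ugt2b38, Ugt3a1 and Ugt3a2, each found by its gene symbol in the annotation of the array. Of these, 9 had a row among the 19505 genes with a symbol, each with 1 feature, and Ugt1a1 was not analysed here. The livers were those of mice labelled as OGT liver knockout (OGTL KO) at 4 weeks, wild type (OGTL WT) at 4 weeks, OGTL KO at 8 weeks and OGTL WT at 8 weeks, with 5 mice and 5 arrays per group. The promoter that drove the deletion, the strain, the sex and the littermate relations are not given in the sources used here. RNA of whole powdered liver was hybridised to Clariom S Mouse arrays, and the values are log2 signals, so that a difference of 1 is a 2-fold difference on the deposited scale.

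On chromosome 5 the annotated coding genes Ugt2b34, Ugt2b1, Ugt2b35, Ugt2b36, Ugt2b5, Ugt2b37, Ugt2a3 and Ugt2b38 follow each other in that order, and Ugt3a1 and Ugt3a2 are neighbours on chromosome 15. The 8 members with an entry in the RefSeq promoter table (assembly GRCm38.p6) are shown by the 140 bases that end just before the annotated start, because 7 of them share a sequence that is rare in other promoters. Capitals mark the match to a 13-base pattern, GTTA, any 5 bases and TAAC, which are the 2 ends of the palindrome bound by HNF1 factors. HNF1 factors are transcription factors of hepatocytes. The motif was picked after the sequences had been seen. Each is given 5′ to 3′ on the gene's strand.
Ugt2a3: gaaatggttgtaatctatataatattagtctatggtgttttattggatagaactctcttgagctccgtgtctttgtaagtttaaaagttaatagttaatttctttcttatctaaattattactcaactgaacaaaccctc
Ugt2b1: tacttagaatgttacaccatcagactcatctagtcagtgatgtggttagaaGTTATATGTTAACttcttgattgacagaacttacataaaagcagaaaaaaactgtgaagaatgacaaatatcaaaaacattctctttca
Ugt2b5: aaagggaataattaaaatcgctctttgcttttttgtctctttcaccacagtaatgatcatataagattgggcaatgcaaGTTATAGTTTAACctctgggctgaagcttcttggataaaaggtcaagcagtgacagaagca
Ugt2b34: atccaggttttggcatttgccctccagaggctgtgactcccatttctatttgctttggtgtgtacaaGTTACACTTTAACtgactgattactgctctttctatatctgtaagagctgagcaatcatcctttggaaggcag
Ugt2b35: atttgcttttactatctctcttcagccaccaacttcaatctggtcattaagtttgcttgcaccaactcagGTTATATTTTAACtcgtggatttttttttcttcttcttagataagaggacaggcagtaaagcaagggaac
Ugt2b36: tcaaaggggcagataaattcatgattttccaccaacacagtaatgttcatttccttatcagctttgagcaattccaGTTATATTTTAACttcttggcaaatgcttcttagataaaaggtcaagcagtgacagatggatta
Ugt2b38: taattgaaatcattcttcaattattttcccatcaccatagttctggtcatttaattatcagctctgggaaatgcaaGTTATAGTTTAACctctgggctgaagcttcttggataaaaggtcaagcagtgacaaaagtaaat
Ugt3a1: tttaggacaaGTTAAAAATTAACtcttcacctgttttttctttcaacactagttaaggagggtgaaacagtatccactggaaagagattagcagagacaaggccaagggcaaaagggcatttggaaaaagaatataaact
The windows lie at chr5:87337196-87337335 (Ugt2a3, minus strand), chr5:86926504-86926643 (Ugt2b1, minus strand), chr5:87140341-87140480 (Ugt2b5, minus strand), chr5:86906938-86907077 (Ugt2b34, minus strand), chr5:87000720-87000859 (Ugt2b35, plus strand), chr5:87092556-87092695 (Ugt2b36, minus strand), chr5:87424204-87424343 (Ugt2b38, minus strand) and chr15:9279689-9279828 (Ugt3a1, plus strand). The match starts 89 (Ugt2b1), 61 (Ugt2b5), 73 (Ugt2b34), 70 (Ugt2b35), 64 (Ugt2b36), 64 (Ugt2b38) and 130 (Ugt3a1) bases before the start. Among the 300-base windows of all promoters in the table, 250 bases before to 50 after the start, 109 of 32851 held the 13-base pattern on either strand (0.332%), and 8 of the 9 UGT windows did, the non-member Ugt2b37 being the eighth. Ugt2a3 was the window without an exact match. Its printed bases hold gttaatagttaat, which departs from the pattern in the last base alone. Inexact matches were not counted in the other windows. TTCNNNGAA, a STAT5 pattern, was in 8.3% of windows, TGACNNNGC, the core of the antioxidant response element, in 12.4%, and GCGTG, the core of the xenobiotic response element, in 32.4%, and none of these was in any of the 9 UGT windows. TATAAA was in 13.6% of windows and, among the UGT windows, in that of Ugt3a1. Some of the windows are close copies: over 300 bases Ugt2b5 and Ugt2b38 shared 87% of positions, Ugt2b38 and Ugt2b37 91%, and Ugt2b5 and Ugt2b37 82.3%. Ugt2b36 and Ugt2b38 shared 67.3%. For scale, Ugt3a1 shared 49.7% (Ugt2b34) to 56% (Ugt2b5) with the Ugt2b windows. A pattern match is a description of letters, and binding was not measured here. Probe sequences of the array were not used here, so signals of close paralogs such as Ugt2b5, Ugt2b37 and Ugt2b38 may be partly shared.

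Every one of the 9 members was above background in all 4 groups, background being the 95th percentile of 1412 olfactory and vomeronasal receptor genes (5.01 to 5.20 by group). Ugt2b1, Ugt2b36, Ugt2b34, Ugt2a3, Ugt2b5 and Ugt3a2 reached values above 16, beyond what a 16-bit scanner can read on a log2 scale, as did 254 to 288 features on each array. The origin of such values is not stated in the labels or notes, and folds of these 6 genes may be stretched. Ogt averaged 8.14 ± 0.53 in KO and 9.57 ± 0.31 in WT at 4 weeks (SD, n = 5 each), a difference of -1.43 (SE 0.20, limma adjusted p = 8.82e-05). At 8 weeks Ogt averaged 9.81 ± 0.21 in KO and 10.08 ± 0.20 in WT, the groups overlapped, and the difference of -0.27 was not called (limma adjusted p = 0.529). The KO effect on Ogt was smaller at 8 weeks than at 4 weeks by 1.16 (interaction, limma adjusted p = 0.0307, lost without any 1 of 7 arrays). The 8-week comparison is thus between livers labelled KO and WT whose Ogt signals were not told apart here. KO replicates 4 and 5 and WT replicate 4 at 4 weeks carried skeletal muscle transcripts (Acta1 15.04 to 15.89, against 4.24 to 6.11 on the other 17 arrays). Without these 3 arrays the 4 UGT genes called between KO and WT at 4 weeks and the 2 called at 8 weeks were called again. That fit kept WT replicate 3 of 4 weeks, where the muscle genes Myh4, Tnnt3 and Mylpf read 8.73, 6.40 and 6.71. On the remaining arrays of that fit they reached at most 4.83, 5.61 and 6.19. The Y-linked Eif2s3y was at 11.08 to 12.09 on all 20 arrays.

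**Figure D1:**
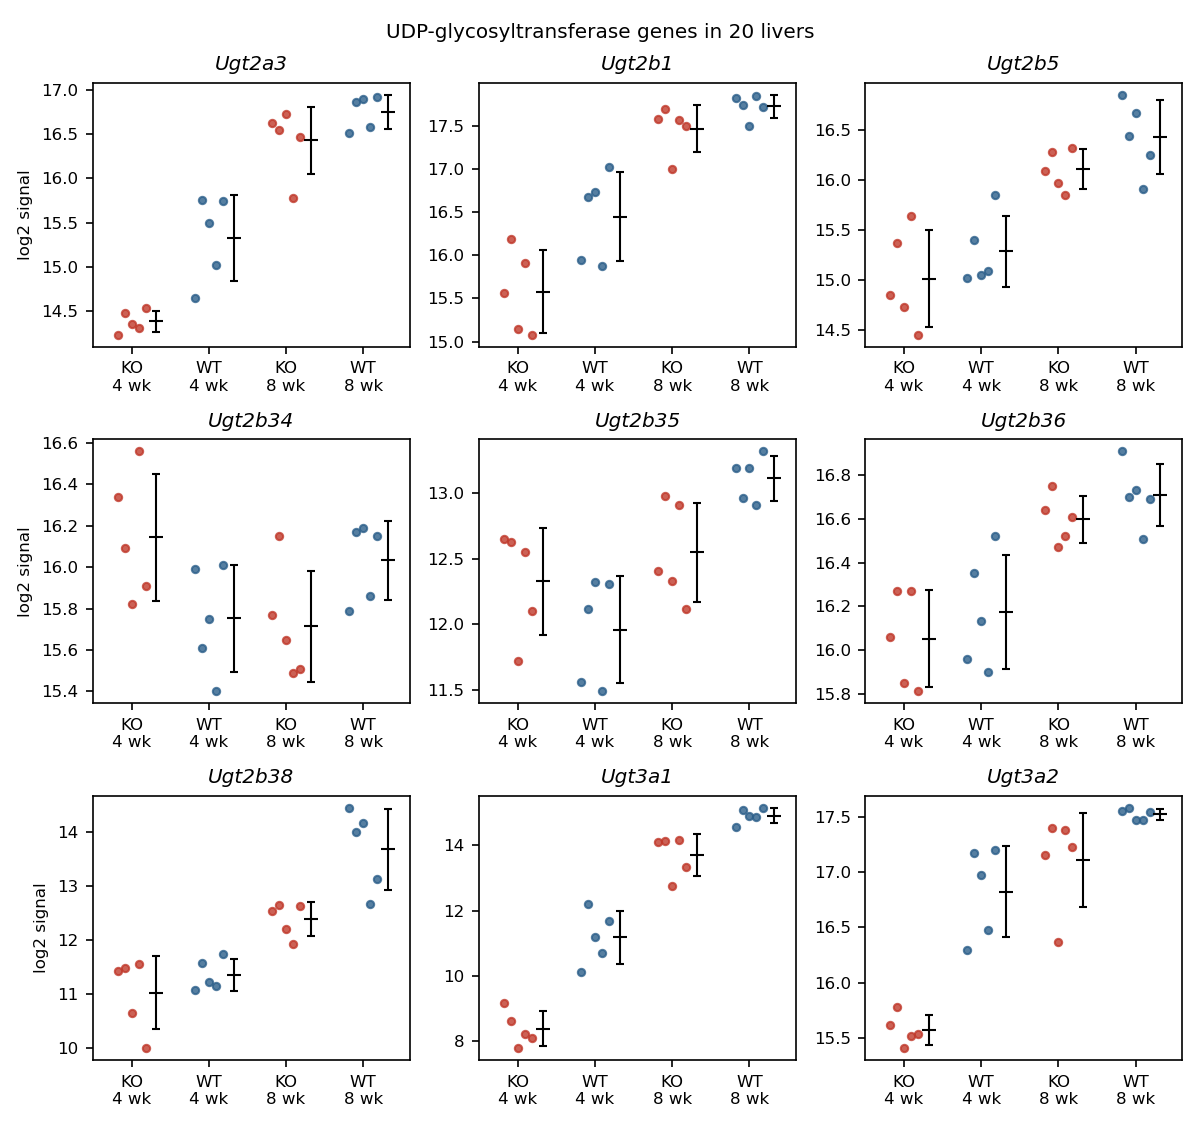
Log2 signals of the 9 UGT genes in each of 20 livers, with a panel per gene. Points are arrays, and the dash with its bar is the mean ± SD of 5 arrays. In the Ugt3a1 panel KO livers lie at 7.80 to 9.19 and WT livers at 10.12 to 12.21 at 4 weeks, and in the Ugt2b34 panel all 4 groups lie between 15.40 and 16.56.

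At 4 weeks the UGT genes split in the knockout. The Ugt3a pair and Ugt2a3 were lower in every KO liver than in any WT liver, Ugt2b1 was lower with overlap, and the other 5 Ugt2b genes did not pass the test. Thus 4 of 9 members were called lower in KO and none higher, where 5.48% of all genes were called lower and 4.7% higher (limma, adjusted p under 0.05). Without adjustment 1 member, Ugt2b34, passed as higher, and all genes were not counted at that level. The groups did not overlap for 3 of 9 members, all lower in KO, against 4.49% of all genes lower without overlap and 4.06% higher. The median difference over the members was -0.33, beside 0.002 over all genes tested. In bulk liver, fewer hepatocytes and less RNA of a gene per hepatocyte cannot be told apart. The 11 hepatocyte markers averaged 18.16 to 18.39 per array in KO and 18.44 to 18.54 in WT at 4 weeks, and 1 of the 11 was called, Cyp2e1, lower in KO by a log2 difference of -0.60. Of these 11, all but Hnf4a were above 16 on every array, the range in which readings may be stretched. Hnf4a averaged 13.45 in KO and 13.73 in WT and was not called. Macrophage markers averaged 8.98 to 9.34 per array in KO and 7.81 to 8.12 in WT at 4 weeks, and 3 of 9 were called higher (Mmp12, Gpnmb and Cd5l), with Mmp12, Gpnmb and Trem2 at or below background in WT and Trem2 in KO too. Tspan8 was called higher among 6 cholangiocyte markers (5.75 to 6.83 in KO and 5.32 to 6.68 in WT), and Stab2 lower among 7 endothelial markers (8.85 to 9.30 in KO and 9.004 to 9.496 in WT). None of 8 stellate cell markers was called (9.64 to 11.31 in KO and 9.12 to 11.04 in WT). Both upper ends lie on arrays with muscle transcripts. There the stellate marker Des read 10.54 and 10.36 (KO replicates 4 and 5) and 12.15 (WT replicate 4). The part of these shifts in the UGT values was not tested.

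Ugt3a1, whose human counterpart attaches N-acetylglucosamine to bile acids, stood at 9.19, 8.64, 7.80, 8.23 and 8.12 in the KO livers at 4 weeks, against 10.12, 12.21, 11.19, 10.70 and 11.67 in the WT livers. All KO values lay below all WT values, and the WT livers spread more widely. Its mean was 14.5% of WT on the deposited scale (log2 difference -2.78, SE 0.34, 95% interval -3.49 to -2.08, limma adjusted p = 1.59e-05, exact two-sided permutation p = 0.00794, the smallest that 5 against 5 allows).

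Ugt3a2, the neighbouring gene, read 15.62, 15.78, 15.41, 15.52 and 15.54 in KO livers and 16.30, 17.17, 16.97, 16.48 and 17.20 in WT livers at 4 weeks. The KO livers were tightly grouped below the lowest WT liver. The difference was -1.25 (SE 0.19, 95% interval -1.64 to -0.86, limma adjusted p = 0.000149), with all 5 WT values and no KO value above 16.

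Ugt2a3, whose human counterpart glucuronidates bile acids, read 14.23, 14.48, 14.35, 14.31 and 14.53 in KO livers and 14.64, 15.76, 15.49, 15.02 and 15.74 in WT livers at 4 weeks. The groups did not overlap, although WT replicate 1 came close to the highest KO liver. The mean was 51.8% of WT (log2 difference -0.95, SE 0.20, 95% interval -1.37 to -0.53, limma adjusted p = 0.00333).

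Ugt2b1, a liver isoform of the Ugt2b family, read 15.56, 16.19, 15.15, 15.91 and 15.08 in KO livers and 15.94, 16.67, 16.73, 15.87 and 17.02 in WT livers at 4 weeks. KO replicate 2 lay above 2 of the WT livers. The difference of -0.87 (SE 0.23, 95% interval -1.34 to -0.40) was called with all 20 arrays in the fit (limma adjusted p = 0.0157; exact permutation p = 0.0397). It was not called in a fit of the 10 arrays of 4 weeks alone (adjusted p = 0.0645) or without WT replicate 5 (-0.72, adjusted p = 0.0555).

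The remaining Ugt2b genes at 4 weeks had overlapping groups and differences that could not be told from 0 after adjustment. Ugt2b34 read 16.34, 16.09, 15.82, 16.56 and 15.91 in KO livers and 15.99, 15.61, 15.75, 15.40 and 16.01 in WT livers, a difference of 0.39 (95% interval 0.05 to 0.74, limma adjusted p = 0.153). Ugt2b35 averaged 12.33 ± 0.41 in KO and 11.96 ± 0.41 in WT, a difference of 0.37 (-0.07 to 0.81, adjusted p = 0.330). These 2 were the members with a positive difference. For Ugt2b5 the difference was -0.27 (-0.73 to 0.18, adjusted p = 0.527), for Ugt2b36 it was -0.12 (-0.40 to 0.16, adjusted p = 0.688), and for Ugt2b38 it was -0.33 (-0.99 to 0.33, adjusted p = 0.619). The interval of Ugt2b36 holds no change beyond 0.40 in either direction, whereas that of Ugt2b38 reaches a 2-fold lower level.

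**Figure D2:**
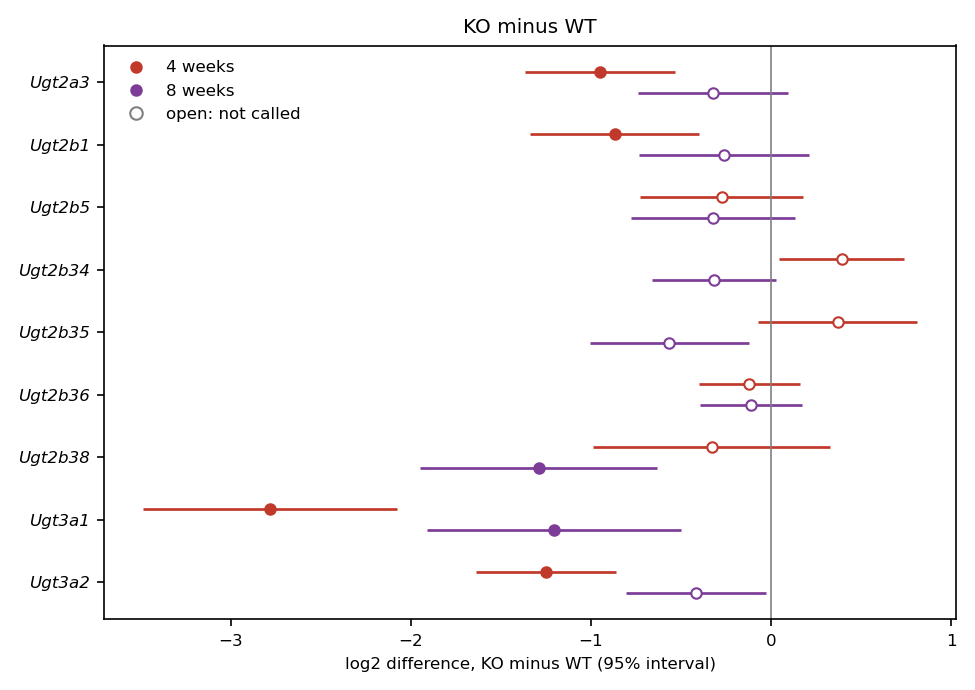
Log2 difference of KO minus WT for the 9 UGT genes at 4 weeks and at 8 weeks, with 95% intervals from limma. Filled points were called at an adjusted p under 0.05 and open points were not. Ugt3a1 is called at both ages (-2.78 and -1.20), Ugt3a2, Ugt2a3 and Ugt2b1 at 4 weeks, and Ugt2b38 at 8 weeks.

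At 8 weeks all 9 members had a lower mean in KO than in WT, as did 10920 of all 19505 genes. Most members were correlated with each other over the arrays, so these are not 9 separate observations. The test was passed by 2 of them, Ugt2b38 and Ugt3a1. None was called higher, with or without adjustment. Over all genes 1.65% were called lower and 4.94% higher. For Ugt2b38, Ugt3a1 and Ugt3a2 the KO and WT livers did not overlap, 3 of 9 members and all lower, against 1.96% of all genes lower without overlap and 4.13% higher. The members' median difference was -0.32, beside -0.04 over all genes. The 11 hepatocyte markers averaged 18.34 to 18.44 per array in KO and 18.39 to 18.54 in WT, none of 11 called with or without adjustment, again with all but Hnf4a above 16. Hnf4a averaged 13.50 in KO and 13.81 in WT. Markers of other cells were called higher. Of 6 cholangiocyte markers 5 were called higher in KO (7.13 to 9.70 per array, against 5.10 to 6.08 in WT), with Krt19 and Epcam at or below background in WT. Of 8 stellate cell markers 5 were called higher (9.31 to 10.64 in KO and 7.86 to 8.71 in WT, Des being at or below background in both), and of 9 macrophage markers 6 (8.19 to 9.13 in KO and 7.38 to 7.70 in WT), with Mmp12, Gpnmb and Trem2 at or below background in WT and Trem2 in KO too. The part of these cells in the UGT values was not tested.

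Ugt2b38 had its values at 12.54, 12.65, 12.21, 11.92 and 12.64 in KO livers, against 14.45, 14.00, 14.17, 12.66 and 13.13 in WT livers at 8 weeks. The highest KO liver came just short of the lowest WT liver, and WT replicates 4 and 5 stood below the other 3. The difference was -1.29 (SE 0.32, 95% interval -1.95 to -0.63, limma adjusted p = 0.0137), which puts the KO mean at 40.9% of WT. At 4 weeks the same gene had not been called.

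Ugt3a1 read 14.09, 14.14, 12.74, 14.17 and 13.34 in KO livers and 14.54, 15.06, 14.90, 14.86 and 15.14 in WT livers at 8 weeks. Again no KO liver reached the lowest WT liver, and KO replicates 3 and 5 were the low ones. The KO mean was 43.4% of WT (log2 difference -1.20, SE 0.34, 95% interval -1.91 to -0.50, limma adjusted p = 0.0331). This call was lost when KO replicate 3 or 5 or WT replicate 2, 3, 4 or 5 was left out (adjusted p 0.0589 to 0.0877) and with quantile normalization repeated (-1.14, adjusted p = 0.0526).

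Ugt3a2 read 17.15, 17.40, 16.37, 17.38 and 17.23 in KO livers and 17.55, 17.58, 17.47, 17.47 and 17.54 in WT livers at 8 weeks. The 5 WT livers lay close together, and all KO livers were below them. The difference of -0.42 (95% interval -0.81 to -0.03) was not called by limma (adjusted p = 0.221), and the exact permutation p was 0.00794. All of these values were above 16.

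Of the remaining members at 8 weeks, Ugt2b35 came nearest to the threshold, with 12.41, 12.98, 12.33, 12.91 and 12.12 in KO livers and 13.19, 12.96, 13.19, 12.91 and 13.32 in WT livers. The groups overlapped in 2 KO livers. The difference was -0.56 (95% interval -1.01 to -0.12, limma adjusted p = 0.132). Ugt2a3 differed by -0.32 (-0.74 to 0.09, adjusted p = 0.404), Ugt2b1 by -0.26 (-0.73 to 0.21, adjusted p = 0.588), Ugt2b5 by -0.32 (-0.78 to 0.13, adjusted p = 0.457) and Ugt2b34 by -0.32 (-0.66 to 0.03, adjusted p = 0.303). Ugt2b36 differed by -0.11 (-0.39 to 0.17, adjusted p = 0.728), as little as at 4 weeks.

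Whether the KO effect itself differed between 8 and 4 weeks was tested as an interaction, and none of the 9 members was called in it, where 2.05% of all genes were called higher and 1% lower. At an unadjusted level 6 of the 9 intervals excluded 0. All genes were not counted at that level, so the shares above are no measure for this count. The estimates ran both ways. The effect was less negative at 8 weeks for Ugt3a1 by 1.58 (95% interval 0.58 to 2.57, limma adjusted p = 0.0787), for Ugt3a2 by 0.83 (0.28 to 1.39, adjusted p = 0.0963) and for Ugt2a3 by 0.63 (0.04 to 1.21, adjusted p = 0.279). It was more negative at 8 weeks for Ugt2b35 by -0.93 (-1.56 to -0.31, adjusted p = 0.102), for Ugt2b34 by -0.71 (-1.20 to -0.22, adjusted p = 0.112) and for Ugt2b38 by -0.96 (-1.89 to -0.03, adjusted p = 0.296). For Ugt2b1 the estimate was 0.61 (-0.06 to 1.27), for Ugt2b5 it was -0.05 (-0.69 to 0.59) and for Ugt2b36 it was 0.01 (-0.39 to 0.41). Ugt3a1 was called in this test without KO replicate 1 at 4 weeks (1.78, adjusted p = 0.0499), without WT replicate 1 at 4 weeks (1.84, adjusted p = 0.0282) and without KO replicate 3 at 8 weeks (1.82, adjusted p = 0.0275). Ugt3a2 was called in the last 2 of these (0.97 and 1.02), and Ugt2b35 without KO replicate 3 at 4 weeks (-1.09, adjusted p = 0.0482). The members called at 4 weeks but not at 8 weeks, or the reverse, are thus not shown to differ between the ages.

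More members were called with age than with genotype. In KO livers 7 of 9 members were called higher at 8 weeks than at 4 weeks and none lower, all 7 without overlap, where 7.85% of all genes were called higher and 6.78% lower, and 4.79% did not overlap and were higher and 4.69% lower. In WT livers 8 of 9 were called higher at 8 weeks and none lower, 7 of them without overlap, where 3.71% of all genes were called higher and 5.23% lower, and 3.7% did not overlap and were higher and 5.38% lower. The members' median difference was 1.37 in KO and 1.15 in WT, beside 0.02 and 0.04 over all genes. Each age comparison shares its arrays with the genotype comparisons above. Ogt itself rose by 1.67 in KO (limma adjusted p = 9.46e-06), from 7.37 to 8.84 per array at 4 weeks to 9.55 to 10.01 at 8 weeks. In WT, Ogt read 9.14 to 9.87 at 4 weeks and 9.84 to 10.33 at 8 weeks. In the KO comparison age and this rise of Ogt cannot be told apart. The age comparison also sets arrays with muscle transcripts at 4 weeks against none at 8 weeks, and without those 3 arrays the counts were 7 of 9 in KO and 7 of 9 in WT. Markers of other cells also moved with age. In KO 6 of 6 cholangiocyte markers were called higher at 8 weeks (7.13 to 9.70 per array, against 5.75 to 6.83 at 4 weeks), macrophage markers were 3 higher and 3 lower of 9, stellate cell markers 2 higher and 1 lower of 8, endothelial markers 0 higher and 1 lower of 7, and hepatocyte markers 2 higher of 11 (Tat and Cyp2e1). In WT 3 of 8 stellate cell markers (7.86 to 8.71 at 8 weeks and 9.12 to 11.04 at 4 weeks), 4 of 7 endothelial markers (7.77 to 8.68 at 8 weeks and 9.004 to 9.496 at 4 weeks) and 3 of 9 macrophage markers were called lower, and 1 macrophage marker was called higher. The upper end of the 4-week stellate range in WT, 11.04, lies on replicate 4, an array with muscle transcripts, where Des read 12.15. The part of these markers in the UGT values was not tested.

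Ugt3a1 was the member with the largest age difference in both genotypes. In KO livers it averaged 13.70 ± 0.64 at 8 weeks and 8.40 ± 0.54 at 4 weeks (SD, n = 5 each), a 39.4-fold difference on the deposited scale (log2 5.30, SE 0.34, limma adjusted p = 1.8e-09). In WT livers it averaged 14.90 ± 0.23 at 8 weeks and 11.18 ± 0.81 at 4 weeks, a 13.2-fold difference (3.72, SE 0.34, adjusted p = 1.6e-07). The 8-week KO livers, the lowest at 12.74, were all above the 4-week WT livers, the highest at 12.21.

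Ugt2b38 rose by 1.37 in KO (SE 0.32, limma adjusted p = 0.00478) and by 2.33 in WT (5.02-fold, SE 0.32, adjusted p = 3.5e-05). Ugt2a3 rose by 2.05 in KO (4.15-fold, SE 0.20, adjusted p = 4.99e-07) and by 1.43 in WT (adjusted p = 4.96e-05). Ugt2b1 rose by 1.89 in KO (SE 0.23, adjusted p = 7.45e-06) and by 1.28 in WT (adjusted p = 0.00067). Each of these 3 genes thus had a higher level at 8 weeks in both genotypes, with no overlap between the ages. Ugt3a2 rose by 1.53 in KO (SE 0.19, adjusted p = 9.46e-06) and by 0.70 in WT (adjusted p = 0.0204), and the WT call was lost without WT replicate 1 or 4 of 4 weeks (0.57 and 0.61) and without the arrays with muscle transcripts (0.61, adjusted p = 0.0821). Ugt2b5 rose by 1.09 in KO (adjusted p = 0.00142) and by 1.14 in WT (adjusted p = 0.00139), and Ugt2b36 by 0.55 in KO (adjusted p = 0.00817) and by 0.54 in WT (adjusted p = 0.0134, with overlapping ages). These 2 are the genes whose age differences were most alike in KO and WT.

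Ugt2b35 was called higher with age in WT (1.15, SE 0.21, limma adjusted p = 0.000989), where the ages did not overlap. In KO it averaged 12.55 ± 0.38 at 8 weeks and 12.33 ± 0.41 at 4 weeks (difference 0.22, 95% interval -0.22 to 0.66, adjusted p = 0.576). Ugt2b34 was called in neither genotype, with -0.43 in KO (-0.77 to -0.09, adjusted p = 0.0910) and 0.28 in WT (-0.06 to 0.62, adjusted p = 0.351). Its 20 values spanned 15.40 to 16.56.

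**Figure D3:**
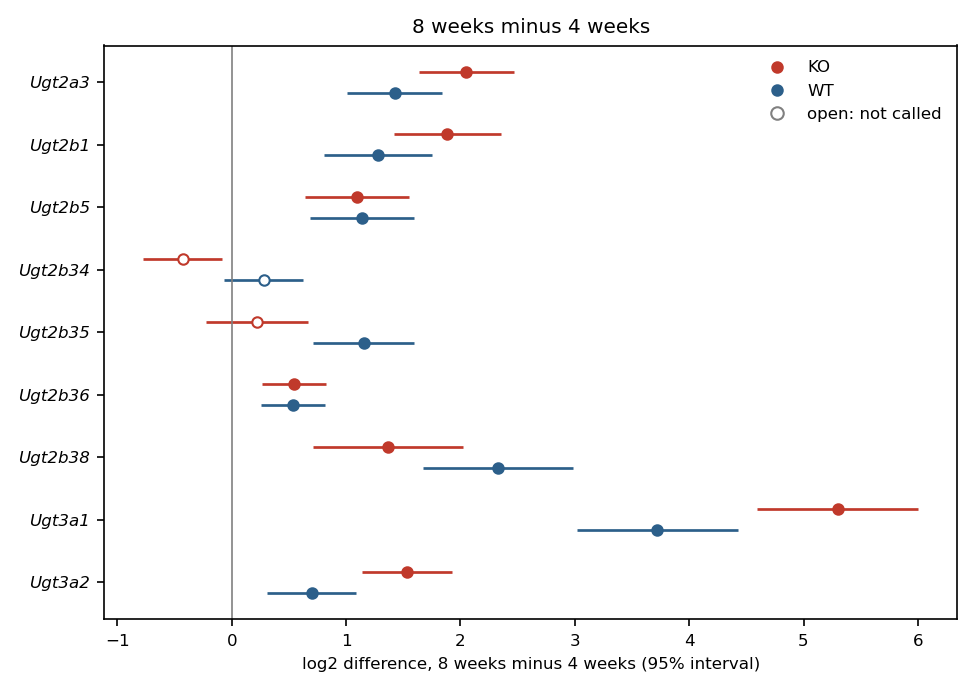
Log2 difference of 8 weeks minus 4 weeks for the 9 UGT genes in KO and in WT livers, with 95% intervals from limma. Filled points were called and open points were not. Ugt3a1 reaches 5.30 in KO and 3.72 in WT, and Ugt2b34 lies at -0.43 in KO and 0.28 in WT, with neither called.

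Across the 20 livers the members other than Ugt2b34 went up and down together. Over their 28 pairs Pearson's r ran from 0.537 to 0.969, as a description of 20 arrays that share the 4 group means. After each group's mean was taken off, r ran from 0.210 to 0.890. Ugt2b5 and Ugt2b36 had r = 0.969 (0.890 within groups), Ugt3a1 and Ugt3a2 had 0.947 (0.834), and Ugt2b5 and Ugt2b38, whose promoter windows are near copies, had 0.944 (0.875). Ugt2b34 had r of -0.248 to 0.424 with the other 8 (0.139 to 0.516 within groups).

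For each member the 3 genes outside the family with the highest r were looked up. They are the highest picked from all genes, over arrays that share the 4 group means. Within groups, r of these pairs ran from 0.243 (Ugt2a3 with Slc22a28) to 0.871 (Ugt2b36 with Nudt7). Over the 20 arrays Ugt3a1 was closest to Slc22a28, an organic anion transporter family gene (r = 0.984, and 0.622 within groups), then Slc22a30 (0.975) and Ces1f, a carboxylesterase (0.970). Slc22a28 or Slc22a30 was also among the closest 3 for Ugt2a3 (0.946 and 0.945), Ugt2b1 (0.948) and Ugt3a2 (0.956). Within groups these were 0.243 and 0.430 for Ugt2a3, 0.616 for Ugt2b1 and 0.651 for Ugt3a2. Ugt3a2 was also close to Sult2a8, a sulfotransferase (0.952), and to Nxt2 (0.948). Hsd3b5, a steroid-metabolizing 3-ketosteroid reductase, was among the closest 3 for Ugt2b1 (0.962), Ugt2b5 (0.914) and Ugt2b36 (0.943). C8a, a complement component, was closest to Ugt2b5 (0.948) and to Ugt2b38 (0.944), and Nudt7, a peroxisomal coenzyme A diphosphatase, was closest to Ugt2b36 (0.946) and among the closest 3 for Ugt2b5 (0.914) and Ugt2b38 (0.927). Mup5 completed the 3 for Ugt2b38 (0.926) and Slco1a1 those for Ugt2b36 (0.942). Ces3b, another carboxylesterase, was closest to Ugt2b1 (0.963), and the replication factor gene Mcm10 to Ugt2a3 (0.946). Ugt2b35 had Ero1b (0.898), Aldh1a1 (0.868) and the efflux transporter Abcg2 (0.857). For Ugt2b34 no gene passed 0.802 (Lce3b, which was not above background in any group), followed by Mdm2 at 0.800 and Mtpn at 0.790.

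Of 12 other UGT symbols looked for, Ugt2b37 and Ugt8a were measured and the rest were not analysed here. Ugt2b37, which lies between Ugt2b5 and Ugt2a3, averaged 9.63 ± 0.45 in KO and 10.48 ± 0.68 in WT at 8 weeks (-0.84, limma adjusted p = 0.168), and 8.70 ± 0.66 in KO and 9.35 ± 0.58 in WT at 4 weeks (-0.65, adjusted p = 0.277). It was higher at 8 weeks in WT (1.13, adjusted p = 0.0419, a call lost without any 1 of 6 arrays, without the arrays with muscle transcripts, with the replicate block and in the fit of only the 2 groups) and not called in KO (0.93, adjusted p = 0.0732). Its r was 0.888 with Ugt2b5 and 0.883 with Ugt2b38. Ugt8a, the ceramide galactosyltransferase of myelin, was not above background in 3 of the 4 groups. In KO livers at 8 weeks it read 5.49, 5.26, 4.31, 4.37 and 7.14, against 3.99, 3.97, 3.71, 3.80 and 4.42 in WT livers (adjusted p = 0.0231). That call was lost without KO replicate 1 or WT replicate 3 or 4 (adjusted p up to 0.0612) and in the fit of only the 2 groups (0.0851), and the difference of 1.34 ran from 0.88 to 1.59 when 1 array was left out. In KO 3 arrays lay above that group's background of 5.02, and no fold is given because the WT group was not above background.

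Of 12 measured genes that make or move the sugar donors, 4 were called higher in KO at 4 weeks, each without overlap, and 8 were not called, 4 of the 12 having a negative difference. Over all genes 4.7% were called higher and 5.48% lower. Ugdh, which oxidizes UDP-glucose to UDP-glucuronic acid, averaged 15.52 ± 0.25 in KO and 13.56 ± 0.71 in WT at 4 weeks (SD, n = 5 each; 1.96, SE 0.26, limma adjusted p = 3.86e-05). Ugp2, which makes UDP-glucose, averaged 16.77 ± 0.48 in KO and 15.71 ± 0.24 in WT (1.05, adjusted p = 0.001). Slc35d1, the transporter that carries UDP-glucuronic acid into the endoplasmic reticulum, averaged 13.96 ± 0.39 in KO and 12.86 ± 0.21 in WT (1.10, adjusted p = 0.00318). Uap1l1, related to the enzyme that makes UDP-N-acetylglucosamine, averaged 7.01 ± 0.46 in KO and 5.43 ± 0.32 in WT (1.58, adjusted p = 0.000309). These 4 calls held under every alternative run. The median difference over the 12 genes was 0.25.

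At 8 weeks 2 of the 12 supply genes were called higher in KO and 1 lower, where 4.94% of all genes were called higher and 1.65% lower. Uap1l1 averaged 6.25 ± 0.58 in KO and 5.24 ± 0.32 in WT (1.01, limma adjusted p = 0.0158, lost without KO replicate 5 or WT replicate 4), Gfpt2, a first-step enzyme of the hexosamine pathway, differed by 1.13 (adjusted p = 0.0101), and Uap1 by -0.45 (adjusted p = 0.0475, lost without any 1 of 14 arrays). The WT means of Uap1l1 (5.24) and Gfpt2 (5.27) lay just above that group's background of 5.20, with lowest arrays at 4.73 and 4.63. Ugdh averaged 14.29 ± 0.36 in KO and 13.91 ± 0.33 in WT (0.38, adjusted p = 0.469), and Ugp2 15.32 ± 0.29 in KO and 15.35 ± 0.12 in WT (-0.03, adjusted p = 0.962). The KO effect was smaller at 8 weeks than at 4 weeks for Ugdh by -1.58 (interaction, adjusted p = 0.0219) and for Ugp2 by -1.08 (adjusted p = 0.0317, lost without any 1 of 7 arrays). With age, 3 of the 12 were called lower in KO and 1 in WT and none higher in either. Of all genes, 6.78% were called lower and 7.85% higher in KO, and 5.23% lower and 3.71% higher in WT. Ugp2 fell by 1.44 (adjusted p = 2.32e-05) and Ugdh by 1.23 (adjusted p = 0.00241) in KO, and Pgm2, a phosphoglucomutase, by 0.95 in KO (adjusted p = 0.000584) and by 1.24 in WT (adjusted p = 4.09e-05).

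**Figure D4:**
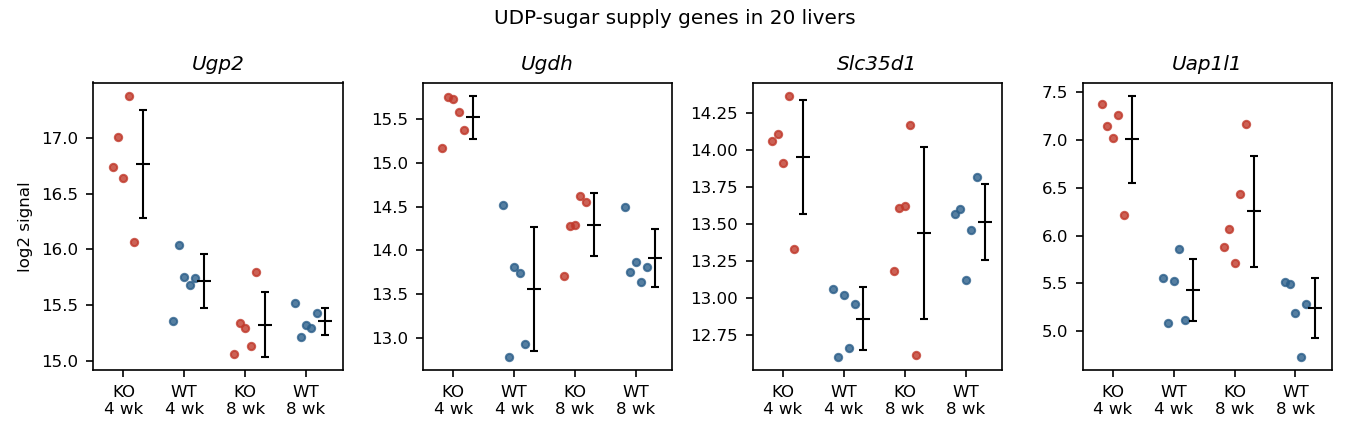
Log2 signals of Ugp2, Ugdh, Slc35d1 and Uap1l1 in the 20 livers, KO beside WT at each age, with points for arrays and bars for mean ± SD of 5 arrays. At 4 weeks all 5 KO livers lie above all 5 WT livers in each panel, and the y axes do not start at 0.

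Of 13 measured genes of bilirubin and glucuronide handling, 1 was called higher in KO at each age and none lower, a share near that over all genes (4.7% higher at 4 weeks and 4.94% at 8 weeks). Hmox1, which opens haem to make the precursor of bilirubin, averaged 10.48 ± 0.76 in KO and 9.25 ± 0.57 in WT at 4 weeks (1.23, limma adjusted p = 0.0109), a call lost without the arrays with muscle transcripts (adjusted p = 0.0842). Abcc4, a basolateral export pump, averaged 6.25 ± 0.36 in KO and 5.68 ± 0.19 in WT at 8 weeks (0.57, adjusted p = 0.0361), a call lost under 5 of 8 other settings. With age 2 of the 13 were called higher and 3 lower in KO, and 4 higher and 2 lower in WT. Of all genes, 7.85% were called higher and 6.78% lower in KO, and 3.71% higher and 5.23% lower in WT. Slco1a1, an organic anion uptake transporter, rose by 4.39 in KO (adjusted p = 0.00675) and by 4.06 in WT (adjusted p = 0.0169, lost without WT replicate 1 or 4 of 4 weeks), and it ranged from 8.36 to 14.44 among KO livers and from 9.02 to 15.74 among WT livers at 4 weeks. Slco1a4, of the same family, fell by 1.39 in KO (adjusted p = 0.00524) and by 2.13 in WT (adjusted p = 0.000135). Slco2b1 rose by 0.96 in KO (adjusted p = 0.00373) and by 0.92 in WT (adjusted p = 0.0071), and Abcg2 by 1.35 in WT (adjusted p = 0.00426). Hmox2, a haem oxygenase, fell by 0.85 in KO (adjusted p = 0.00199) and by 0.60 in WT (adjusted p = 0.0358, lost without any 1 of 7 arrays).

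Among 23 measured genes listed as possible regulators of UGT genes, mostly transcription factors and receptors, 5 were called lower in KO at 4 weeks and none higher. Of all genes tested, 5.48% were called lower and 4.7% higher. The list median was -0.60, beside 0.002 over all genes. Nr1i3, the xenobiotic receptor CAR, averaged 9.11 ± 0.47 in KO and 10.59 ± 0.67 in WT (-1.47, limma adjusted p = 0.00575). Its partner Rxra differed by -0.75 (adjusted p = 0.00484), the growth hormone receptor gene Ghr by -0.66 (adjusted p = 0.0102), and the glucocorticoid receptor gene Nr3c1 by -0.61 (adjusted p = 0.0174, lost without KO or WT replicate 2). At 8 weeks 1 of the 23 was called, Cebpa, at 11.43 ± 0.23 in KO and 12.20 ± 0.18 in WT (-0.77, adjusted p = 0.0349, lost without any 1 of 8 arrays). At 8 weeks 1.65% of all genes were called lower and 4.94% higher. With age, 7 of the 23 were called higher in KO and 3 in WT, and none lower. The shares of all genes called higher with age were 7.85% in KO and 3.71% in WT. Those called lower were 6.78% and 5.23%. Cebpa rose by 0.98 in KO and 1.19 in WT, and Ghr by 1.07 in KO and 0.63 in WT. The WT call of Ghr was lost without the arrays with muscle transcripts. Prox1 rose by 1.14 and Nr1i3 by 1.21 in KO, the Nr1i3 call being lost without KO replicate 4 of 8 weeks. Foxa1 rose by 1.48 in WT and by 1.07 in KO. The KO call of Foxa1 (limma adjusted p = 0.0328) was lost without any 1 of 7 arrays and without the arrays with muscle transcripts.

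The target genes used as readouts of such receptors moved in several directions. Of 11 measured, 3 were called higher and 1 lower in KO at 4 weeks, where 4.7% of all genes were called higher and 5.48% lower. The NRF2 targets Srxn1 (3.71, limma adjusted p = 4.87e-06) and Nqo1 (1.43, adjusted p = 0.000583) were called under every alternative, and Gclc (1.07, adjusted p = 0.0207) was not. The PPARalpha target Cyp4a10 was the one lower, by -1.89 (adjusted p = 0.0371, lost without any 1 of 7 arrays). At 8 weeks Nqo1 (1.03, adjusted p = 0.0113) and Cyp4a14 (1.97, adjusted p = 0.0344, lost without any 1 of 6 arrays) were higher in KO and none lower. Of all genes, 4.94% were called higher and 1.65% lower at 8 weeks. With age 6 of the 11 fell in KO and 5 in WT, while none rose. The shares of all genes called lower with age were 6.78% in KO and 5.23% in WT. Those called higher were 7.85% and 3.71%. Cyp4a14 averaged 11.07 ± 1.47 at 8 weeks and 15.88 ± 0.50 at 4 weeks in KO, and 9.10 ± 1.20 at 8 weeks and 17.21 ± 0.30 at 4 weeks in WT. Srxn1 fell by 3.48 in KO (adjusted p = 5.19e-06), Nqo1 by 1.75 in KO (adjusted p = 4.44e-05) and by 1.35 in WT (adjusted p = 0.000889), and Cyp4a10 by 4.27 in WT (adjusted p = 2.95e-05). Cyp2b9 fell by 5.89 in KO (adjusted p = 0.0105). In WT it was called lower (adjusted p = 0.000672), was not above background at 8 weeks, and ranged from 4.40 to 15.37 at 4 weeks. In the same livers 7 and 8 of the 9 UGT genes were called higher with age in KO and in WT.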

How the data were processed

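The 20 arrays were grouped by the genotype and age in the labels, 5 per group. The deposited table held log2 signals that the authors made with RMA in Affymetrix Expression Console, per the submitters' processing notes, which name no version. It held 22206 features with values from 2.32 to 19.85. Of these, 19572 had 1 gene symbol in the array annotation, 2634 were left out, and for 55 symbols with several features the feature with the highest mean was kept, which left 19505 genes. With 5 arrays per group, the number of arrays sets how precise a group mean can be. Array medians were 5.42 to 5.58, the mean correlation of an array with its group was 0.976 to 0.990, and no 2 arrays were identical. Array numbers in the sample titles run in group order, so array order and group cannot be told apart, and scan dates were not used here.

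A linear model of the 4 groups over all 20 arrays, without a block, was fitted and moderated by limma 3.58.1 (R 4.3.3); 16 degrees of freedom were left. Benjamini-Hochberg adjustment ran over all 19505 genes in each of 5 comparisons, and a gene was called at an adjusted p under 0.05. Exact two-sided permutation tests over arrays cannot go below 0.00794 for 5 against 5. Promoter windows came from RefSeq (GRCm38.p6), and identities were aligned with Biopython 1.88. No source used here names the genome build behind the array table.

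The members and gene lists were chosen with earlier results of these data known. The text names every member, the non-member UGTs measured, up to 4 called genes per list and comparison with the smallest adjusted p, and the 3 genes most correlated with each member over the 20 arrays. Alternatives were equal array medians, repeated quantile normalization, the dimmest 25% of genes left out, the mean of a symbol's features, trend and robust moderation, only the 2 groups compared, the replicate number as a block, each array left out, and, chosen after seeing the data, the 3 arrays with muscle transcripts (Acta1 above 10) left out.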

Additional observations from a re-analysis of the deposited data

Results flagged for a closer look

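In the 36 combinations of 9 UGT genes and 4 groups, 3 had an array that stood apart from the other 4 by Dixon's 95% criterion (a gap of more than 0.71 of the group's range), where chance gives about 1 in 20. All 3 were low values in 8-week KO livers. Ugt3a2 was at 16.37 in replicate 3, with the nearest of the others at 17.15. Ugt2b1 was at 17.0 in the same replicate, with the nearest at 17.49. Ugt2a3 was at 15.78 in replicate 4, with the nearest at 16.47. Replicate 3 also held the lowest Ugt3a1 value of its group, 12.74.

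Ogt and 4 genes of the supply, bilirubin, regulator and receptor-target lists had a KO effect that differed between 8 and 4 weeks by limma's interaction term, each value being the 8-week effect minus the 4-week effect. Ogt differed by 1.16 (adjusted p = 0.0307). Ugdh differed by -1.58 (adjusted p = 0.0219) and Ugp2 by -1.08 (adjusted p = 0.0317), both of UDP-glucuronic acid supply. Srxn1, an NRF2 target, differed by -3.01 (adjusted p = 0.00578). Cyp4a14, a PPARalpha target, differed by 3.30 (adjusted p = 0.0244), with 11.07 ± 1.47 in KO and 9.10 ± 1.20 in WT at 8 weeks and 15.88 ± 0.50 in KO and 17.21 ± 0.30 in WT at 4 weeks (SD, n = 5 each). The Cyp4a14 interaction was not called without the arrays with muscle transcripts or with trend and robust moderation. Among the cell type markers 3 of 8 stellate, 2 of 6 cholangiocyte, 1 of 9 macrophage and 1 of 7 endothelial markers were called in the same test, all positive. Of all genes, 2.05% were called positive in it and 1% negative.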

How the results depend on the processing

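Over all alternatives for single UGT genes, 1213 values kept their direction and side of the threshold, 8 gained a call, 12 lost one and 18 changed sign, all of them near 0 and uncalled. With quantile normalization repeated, 1 member was called higher in KO at 4 weeks (Ugt2b34, 0.51, limma adjusted p = 0.0467) in place of 0, 1 was called lower at 8 weeks in place of 2 (Ugt3a1 lost), and Ugt2b36 at 8 weeks turned to 0.00865. Why was not tested. The Ugt2b5 interaction turned to 0.0247 without the muscle arrays, and that of Ugt2b36 to -0.019 with array medians set equal. Leaving out 1 array at a time, these interactions ran from -0.19 to 0.11 for Ugt2b5 and from -0.077 to 0.078 for Ugt2b36. The same exercise gave 3 to 4 members called lower and 0 to 0 called higher at 4 weeks, 1 to 2 lower at 8 weeks, and 0 to 2 higher and 0 to 1 lower in the interaction. With age it gave 7 to 7 higher and 0 to 1 lower in KO (Ugt2b34, -0.54, adjusted p = 0.0364, without KO replicate 2 of 8 weeks), and 7 to 8 higher in WT.

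With the replicate number as a block, the counts stayed at 4 members lower at 4 weeks and 2 at 8 weeks, and no call of a member changed. Calls of Ugt2b37 with age in WT, of Uap1 and Abcc4 at 8 weeks and of the Ugp2 interaction (adjusted p = 0.0593) were lost. Same-numbered arrays deviated with r from -0.18 to 0.48, over 0.1 in 5 of 20 pairs, 4 of them between KO and WT at 4 weeks, where the fifth pair had -0.146. The highest r, 0.48, was that of KO and WT replicate 4 of 4 weeks, and both of these arrays carried muscle transcripts. The part of these transcripts in that r was not tested. In no comparison was every pair over 0.1, and 5 of 20 correlated best with their own number, so the numbers were not taken as pairs. Setting medians equal moved the share of called genes that were higher in KO to 34.7% at 4 weeks (46.2% as deposited) and to 52.9% at 8 weeks (75%), with 727 genes lower at 8 weeks in place of 321. Arrays left out moved the lower calls at 8 weeks over 199 to 340 genes.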

Other observations

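The 8-week WT livers were uneven for several Ugt2b genes. In replicates 1, 2 and 3 Ugt2b38 was at 14.45, 14.00 and 14.17, and in replicates 4 and 5 at 12.66 and 13.13. Ugt2b37 was at 11.29, 10.70 and 10.85 in the same 3 livers and at 9.66 and 9.88 in the other two. Ugt2b5 was at 16.85, 16.44 and 16.67, and at 15.91 and 16.25. Ugt2b36 had the same order in a narrower range, with 16.91, 16.70 and 16.73, and 16.51 and 16.69. Ugt2a3, which lies between Ugt2b37 and Ugt2b38, did not follow this order, with 16.51, 16.87 and 16.90, and 16.58 and 16.92. Nor did Ugt3a2, lying at 17.47 to 17.58 in all 5, or Ugt2b1, Ugt2b34, Ugt2b35 and Ugt3a1. The order was not particular to UGT genes. Nudt7 had it too (16.38, 16.41 and 15.91, and 15.20 and 15.81), as did Mup5 (10.75, 11.26 and 10.76, and 10.06 and 9.96). Hsd3b5 and Slc22a28 did not. The spread was noticed after the values were seen and was not tested.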
